A study of Mus musculus with 6 samples.

Results

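Genes of the aminoacyl-tRNA synthetases, the enzymes that join each amino acid to its transfer RNA, were examined in mouse N18 neuroblastoma cells after silencing of Nrsf. The genes were taken by name from the platform annotation: symbols made of an amino acid letter and "ars" with or without 1 or 2, both subunits of the cytosolic phenylalanyl enzyme, Eprs, Qars and the Aimp genes. The name rule found 37 genes on 72 spots, out of 19019 genes measured in all. Of the 37, 19 encode cytosolic enzymes, 16 have symbols that end in 2 and encode mitochondrial enzymes, and 2 (Aimp1 and Aimp2) encode scaffold proteins. All 37 had at least 1 spot with a value on every array, and 71 of the 72 spots were used, since a spot of Iars lacked a value on array 6.

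Each of 6 two-colour Agilent arrays set N18 cells that had received an siRNA to Nrsf, the repressor gene now named Rest, against N18 cells given a scrambled siRNA. The siRNA sample carried Cy5 on arrays 1 to 3 and Cy3 on arrays 4 to 6. N18 is a single cell line, knockdown is partial, and nothing in the labels shows that each pair was a transfection of its own. The p-values therefore cover only the variation among these 6 arrays, which may be technical. Each value is the log2 of siRNA signal divided by scrambled signal. The log base was inferred, and this direction is likely rather than settled: were it opposite, every "lower" would read "higher".

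Charged transfer RNAs for every amino acid are needed both in the cytosol and in mitochondria. Most amino acids are served by separate nuclear genes for each compartment, while in mammals Gars and Kars each supply both, and mitochondrial glutaminyl-tRNA is made by amidation of glutamyl-tRNA. Several cytosolic enzymes sit in a multisynthetase complex held together by the AIMP proteins. Many cytosolic synthetase genes are known targets of ATF4, the transcription factor of the integrated stress response.

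Rest, the silenced gene, fell to 78.5% of the scrambled level, a log2 ratio of -0.35 ± 0.13 (SD, n = 6; adjusted p = 0.00353 in limma), and every array was negative. Its 3 spots averaged -0.05, -0.44 and -0.55, and the first of these did not pass (adjusted p = 0.751). With that spot alone, or on the Cy5 arrays alone, the call for Rest was lost. Between 43689 and 43778 of 44290 spots had a value on each array, and the median of all genes lay between -0.01 and 0.005. Array 1 stood apart: over genes it correlated with the others at 0.29 to 0.37, against 0.54 to 0.82 among arrays 2 to 6. Its 5th percentile of genes was -0.53, compared with -0.26 to -0.21 on the other 5. Results are therefore also given without array 1. Array ratios hold no expression level, so the identity of the cells could not be checked by marker levels. None of 7 glial, 8 mesenchymal or 5 immune markers passed in limma (unadjusted p under 0.05 for 1, 2 and 0). Over all genes, 4894 of 19019 had an unadjusted p that low. Of 7 markers of neuroblastoma identity, 4 rose (Chgb by 0.70 ± 0.24, Phox2a by 0.44 ± 0.22, Tubb3 by 0.30 ± 0.23 and Hand2 by 0.20 ± 0.12) and Gata3 fell by 0.51 ± 0.15. Dbh and Th, at 0.04 ± 0.04 and 0.02 ± 0.04, did not pass. Of all genes, 5.88% rose and 9.11% fell. The number of these markers that rose was 4 without array 1, 2 without array 2 or 3 and 1 without array 4 or 5. The share of all genes that rose moved with the same arrays. It was 13.7% without array 1, 3.03% and 3.14% without array 2 and 3, and 2.91% and 1.73% without array 4 and 5. The part of these changes in the synthetase values was not tested.

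Synthetase genes that changed were all lower in siRNA-treated cells, in both compartments. In the limma fit across all genes, at an adjusted p of 0.05 (Benjamini-Hochberg), 4 of 19 cytosolic genes fell (Tars, Farsb, Eprs and Cars) and 3 of 16 mitochondrial genes fell (Yars2, Tars2 and Sars2). No cytosolic, mitochondrial or scaffold gene rose. Of all 19019 genes, 9.11% fell and 5.88% rose, so the shares that fell were 21.1% and 18.8% against a background of 9.11%. A total of 18 of the 37 had an unadjusted p under 0.05, as did 4894 of all 19019 genes. The changes were small: the mean log2 ratios of the 7 genes ran from -0.35 to -0.14, or 78.3% to 90.7% of the scrambled level.

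**Figure D1:**
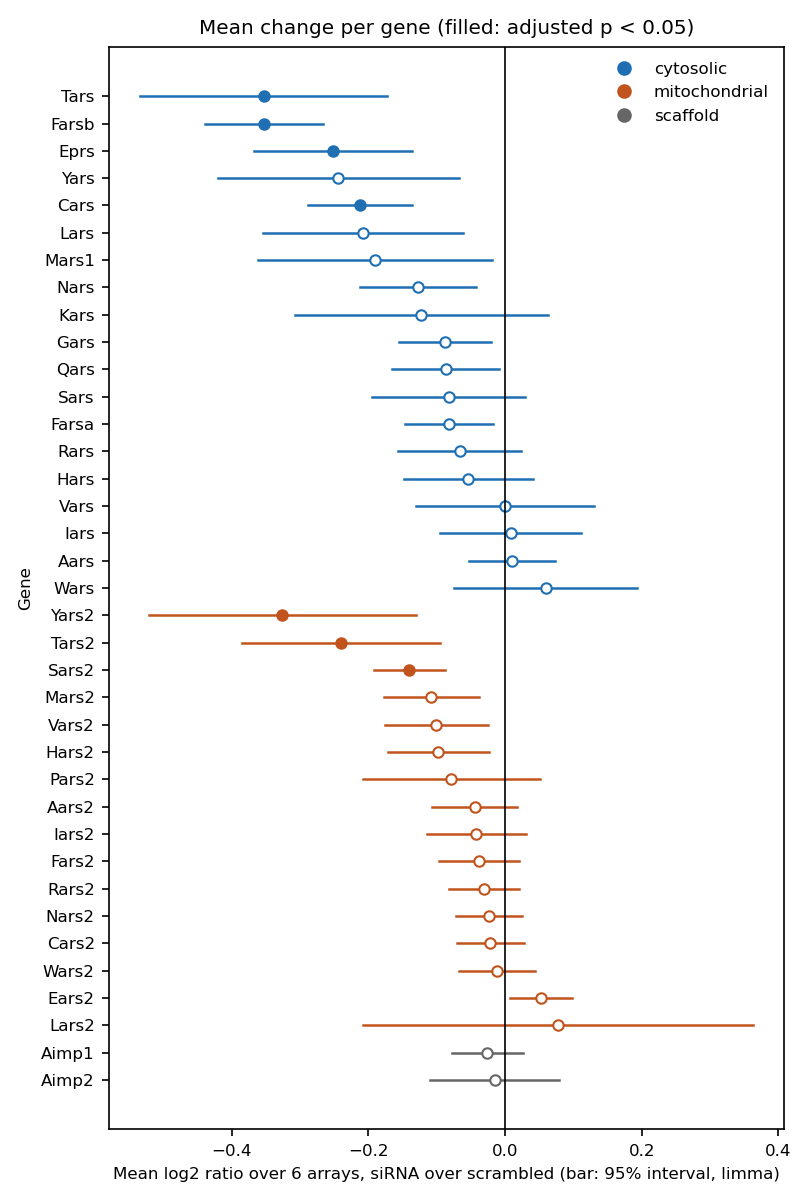
Mean log2 ratio of each gene over 6 arrays (horizontal axis, siRNA over scrambled) with its 95% interval from limma, for 19 cytosolic, 16 mitochondrial and 2 scaffold genes. Filled points mark the 7 genes past the threshold, all to the left of 0.

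Farsb, which encodes the beta subunit of cytosolic phenylalanyl-tRNA synthetase, fell on every array and had the smallest adjusted p of the 37 genes. Its single spot stood at -0.47, -0.36, -0.24, -0.28, -0.33 and -0.43 on arrays 1 to 6. All arrays were low and both dye orientations overlapped, with a mean of -0.36 in Cy5 and -0.35 in Cy3. The mean log2 ratio was -0.35 ± 0.09 (SD, n = 6; adjusted p = 0.00220 in limma), and the adjusted p lay between 0.000128 and 0.0200 when any single array was left out. Farsa, which encodes the alpha subunit of the same enzyme, was at -0.08 ± 0.10 with an adjusted p of 0.0993 in limma, and its 4 spots lay between -0.17 and -0.04. Farsb was lower than Farsa on 6 of 6 arrays, by 0.27 ± 0.13 on average (exact sign-flip permutation test over 6 arrays, two-sided, p = 0.0312, the smallest possible; adjusted p = 0.113 over 18 comparisons).

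Tars, the cytosolic threonyl-tRNA synthetase gene, had the lowest mean of the cytosolic set, but its arrays disagreed. Values were -0.93, -0.40, -0.43, 0.001, -0.11 and -0.26 on arrays 1 to 6. The 3 Cy5 arrays were all lower than the 3 Cy3 arrays, with means of -0.59 and -0.12, and array 4 showed no fall. The mean was -0.35 ± 0.33 (SD, n = 6; adjusted p = 0.0252 in limma), and the dye term did not pass (adjusted p = 0.500). Without array 1 it was -0.27 (adjusted p = 0.000914), and without array 4, 5 or 6 the call was lost (adjusted p = 0.0637, 0.0999 and 0.105), as it was in a model with no dye term (adjusted p = 0.0753). Of its 2 spots for the same transcript, at -0.38 and -0.33, only the latter passed as a single spot (adjusted p = 0.0611 and 0.0188 in limma).

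Eprs encodes the enzyme that charges both glutamate and proline transfer RNAs and is a core member of the multisynthetase complex. It stood at -0.46, -0.17, -0.25, -0.06, -0.26 and -0.32 on arrays 1 to 6. All arrays were below 0, the lowest being array 1 and the highest array 4. The mean was -0.25 ± 0.13 (SD, n = 6; adjusted p = 0.0173 in limma), and the call was lost without array 5 or 6 (adjusted p = 0.0847 and 0.0770). Of the 4 spots of Eprs, all listed for 1 transcript, 3 passed (-0.37, -0.33 and -0.21), and the other was at -0.09.

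Cars, the cytosolic cysteinyl-tRNA synthetase gene, stood at -0.30, -0.08, -0.22, -0.21, -0.27 and -0.20 on arrays 1 to 6. Apart from array 2, which was nearest to 0, the arrays lay close together. The mean was -0.21 ± 0.07 (SD, n = 6; adjusted p = 0.00759 in limma), and the adjusted p stayed between 0.00122 and 0.0468 when any single array was left out. Its 3 spots, for 1 transcript, were at -0.09, -0.27 and -0.27, and the first of these did not pass (adjusted p = 0.119 in limma).

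Among mitochondrial enzymes, Yars2, which charges tyrosine, stood at -0.80, -0.16, -0.23, -0.23, -0.23 and -0.31 on arrays 1 to 6. Array 1 was far below the other 5, which lay close together. The mean was -0.33 ± 0.24 (SD, n = 6; adjusted p = 0.0423 in limma). Without array 1 the mean was smaller and the p lower (-0.23, adjusted p = 0.000279), and without array 3, 4, 5 or 6 the call was lost (adjusted p = 0.0636, 0.122, 0.138 and 0.150).

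Tars2, the mitochondrial threonyl-tRNA synthetase gene, read -0.59, -0.11, -0.22, -0.13, -0.20 and -0.20 on arrays 1 to 6. Here too array 1 was far below the other 5, all of which were negative. The mean was -0.24 ± 0.18 (SD, n = 6; adjusted p = 0.0429 in limma), or -0.17 without array 1 (adjusted p = 0.00178). The call was lost without array 3, 4, 5 or 6 (adjusted p = 0.0813, 0.115, 0.154 and 0.148). Its 2 spots lay at -0.21 and -0.27, and the former passed.

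Sars2, the mitochondrial seryl-tRNA synthetase gene, had the smallest of the 7 changes. Its spot read -0.20, -0.14, -0.16, -0.16, -0.11 and -0.07 on arrays 1 to 6. No array stood apart, and the mean was -0.14 ± 0.05 (SD, n = 6; adjusted p = 0.00865 in limma). When any single array was left out, the adjusted p lay between 0.00365 and 0.0487. Sars, its cytosolic counterpart, was negative on 3 arrays and at -0.08 ± 0.18 (adjusted p = 0.358 in limma).

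**Figure D2:**
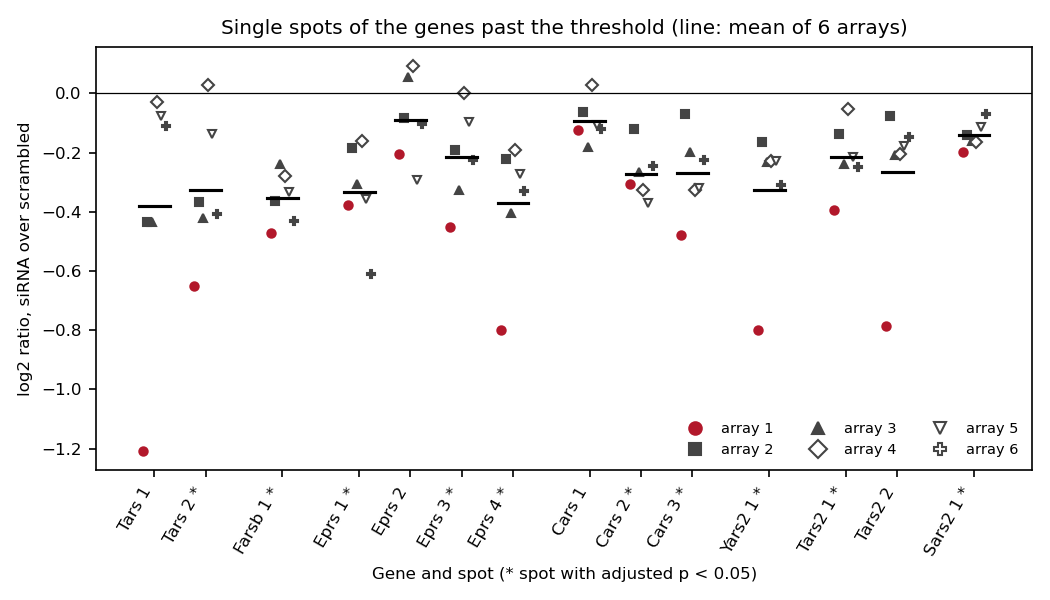
Log2 ratios (vertical axis) of the 14 single spots of the 7 genes that fell, with a point for each of the 6 arrays, array 1 in red and the mean as a line. Array 1 is the lowest point on 10 of the 14 spots, and 1 spot of Tars reaches -1.21 on it.

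Counts over single spots gave a like picture. Of 71 spots, 12 passed as lower and 0 as higher in limma, against 6.85% and 4.21% of all 43530 spots. Besides spots of the 7 genes, these were a spot of Lars at -0.26 and a spot of Vars2 at -0.18. The other spots of these genes did not pass, and neither gene was called on its mean.

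Of the other 15 cytosolic genes, 11 had a negative mean. Nars, which charges asparagine, came nearest to the threshold (-0.13 ± 0.12, negative on 6 of 6 arrays, adjusted p = 0.0613 in limma). Yars was at -0.24 ± 0.27, Lars at -0.21 ± 0.17 and Mars1 at -0.19 ± 0.23, for tyrosine, leucine and methionine. All 3 were lowest on array 1, where they read -0.69, -0.46 and -0.49. Kars was at -0.12, Gars, Qars and Sars between -0.09 and -0.08, and Rars and Hars at -0.07 and -0.05. Vars, Iars, Aars and Wars, for valine, isoleucine, alanine and tryptophan, had means of 0.0003, 0.01, 0.01 and 0.06. The 5 spots of Aars stayed between -0.05 and 0.06, and its 95% interval of -0.05 to 0.07 was the narrowest of the cytosolic set.

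The call for Wars turned on array 1. Its mean over spots was -0.28 on array 1 and 0.15, 0.10, 0.15, 0.12 and 0.12 on arrays 2 to 6. With all 6 arrays its adjusted p was 0.622, and without array 1 it was higher, at 0.13 with an adjusted p of 0.00301 in limma. Its 2 spots had 6-array means of 0.13 and -0.01, and on arrays 2 to 6 the former was positive on every array while the latter ran from -0.10 to 0.10.

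Of the other 13 mitochondrial genes, Mars2 came nearest to the threshold (-0.11 ± 0.09, adjusted p = 0.0544 in limma), followed by Vars2 and Hars2, both at -0.10. Pars2, Aars2, Iars2, Fars2, Rars2, Nars2, Cars2 and Wars2 lay between -0.08 and -0.01. Ears2, the mitochondrial glutamyl enzyme gene, was positive on 6 of 6 arrays, though at only 0.05 ± 0.02 with an adjusted p of 0.128 in limma. Lars2 had the widest spread of all 37, with 0.85 on array 4, 0.23 on array 5 and -0.23 to -0.08 on the others, and a mean of 0.08 ± 0.41 (adjusted p = 0.791 in limma).

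Both scaffold genes had means near 0, Aimp1 at -0.03 ± 0.05 and Aimp2 at -0.02 ± 0.14. The 3 spots of Aimp1 ran from -0.16 to 0.04, and none passed. The lowest of them was negative on 6 of 6 arrays (adjusted p = 0.140 in limma). The third scaffold protein of the complex, AIMP3, is encoded by Eef1e1, which the name rule does not cover. It was at -0.30 ± 0.31 (adjusted p = 0.141 in limma) and did not pass.

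**Figure D3:**
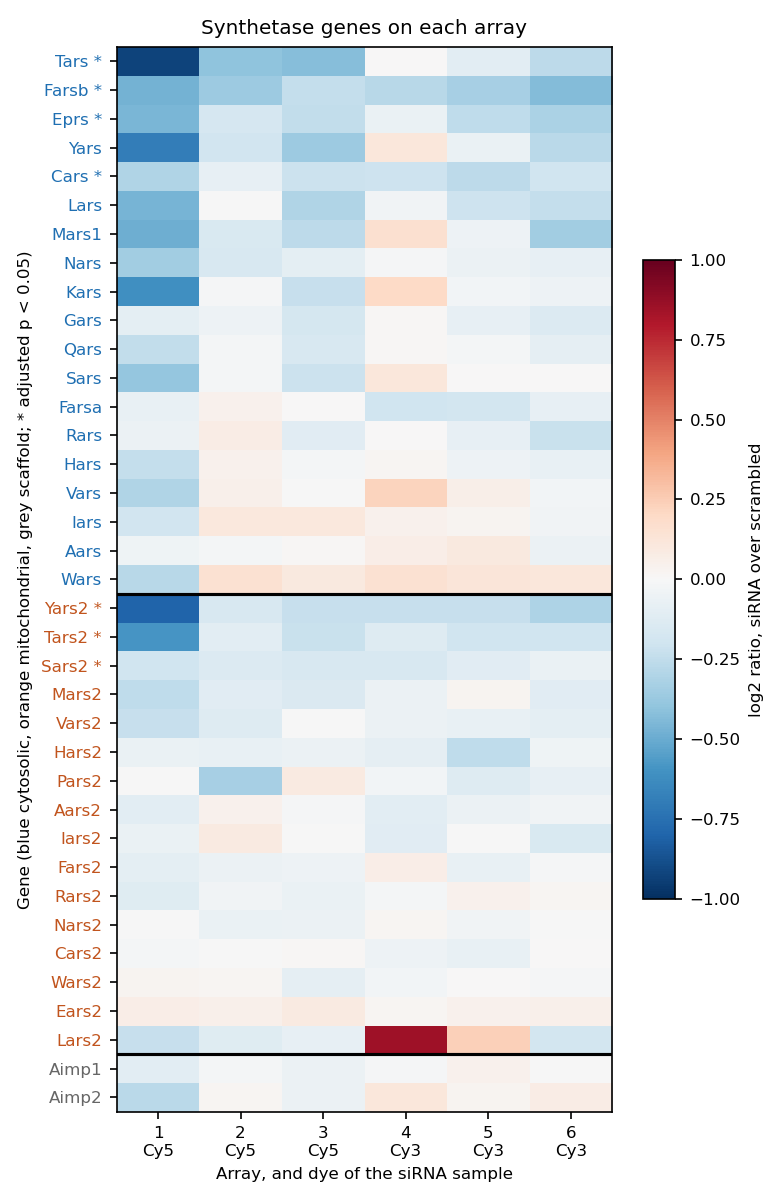
Log2 ratio of each gene (rows, ordered by mean within cytosolic, mitochondrial and scaffold genes) on each of the 6 arrays (columns, with the dye of the siRNA sample). Blue is lower in siRNA-treated cells, asterisks mark the 7 genes past the threshold, and array 1 holds the darkest blue cells, with Tars at -0.93 and Yars2 at -0.80.

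The cytosolic set as a whole moved more from array to array than the mitochondrial set did. The median of the 19 cytosolic genes was -0.30, -0.02, -0.17, 0.01, -0.06 and -0.09 on arrays 1 to 6. The median of the 16 mitochondrial genes was -0.10, -0.07, -0.06, -0.05, -0.07 and -0.06. The cytosolic median thus spanned both sides of 0, whereas the mitochondrial median was negative on 6 of 6 arrays within a narrow band. Over the 6-array means the medians were -0.09 and -0.04, against 0.0025 for all genes. No test was made of this difference. On array 1, 19 of 19 cytosolic and 14 of 16 mitochondrial genes were negative, compared with 6 and 12 on array 4. Of all genes, between 47.7% and 53.6% were negative on any array.

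**Figure D4:**
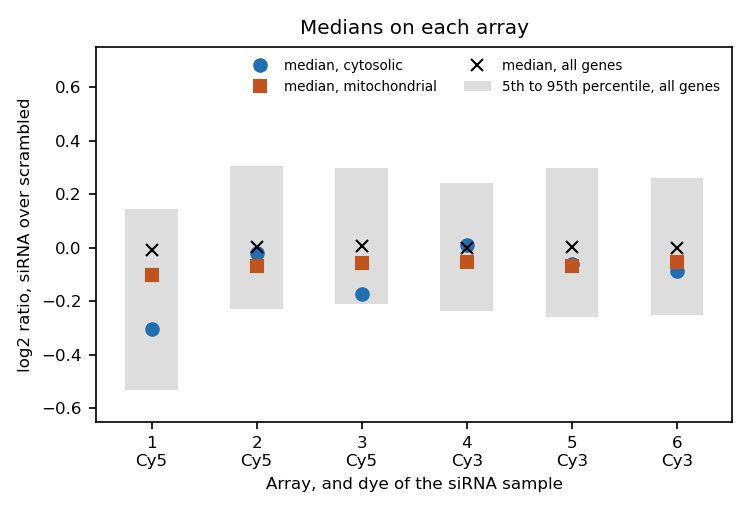
Median log2 ratio on each array for the cytosolic genes (circles), the mitochondrial genes (squares) and all genes (crosses), with the 5th to 95th percentile of all genes as grey bars. The cytosolic median ranges from -0.30 on array 1 to 0.01 on array 4, while the mitochondrial median stays between -0.10 and -0.05.

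Negative values on every array were seen for 10 of the 37 genes, 5 in each compartment, and positive values on every array for 1, Ears2. Of all genes, 11.6% were negative and 6.3% positive on all 6 arrays. Without array 1, 11 genes fell and 1 rose, while 12.2% of all genes fell and 13.7% rose. The 11 were the 7 above with Yars, Lars, Nars and Mars2, and the gene that rose was Wars. Without array 5 or 6, 3 members were called, and the count over all genes dropped as well, to 1116 and 1214 from 2852.

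Enzymes for the same amino acid in the 2 compartments were compared array by array, as the difference between their log2 ratios. With all 6 arrays, threonine was the only amino acid for which the genes of both compartments passed as lower. Both of these calls were lost without array 4, 5 or 6. Without array 1, both tyrosine genes passed too (adjusted p = 0.0440 for Yars and 0.000279 for Yars2 in limma). Yars minus Yars2 was 0.08 ± 0.16 over the 6 arrays (adjusted p = 0.433, exact sign-flip test). For cysteine, Cars fell and Cars2 was at -0.02 ± 0.03, and for glutamate Eprs fell and Ears2 was at 0.05. For tyrosine and serine the mitochondrial gene was the one past the threshold with all 6 arrays. The difference was -0.19 ± 0.07 for Cars minus Cars2, -0.30 ± 0.15 for Eprs minus Ears2, -0.32 ± 0.08 for Farsb minus Fars2 and -0.10 ± 0.12 for Nars minus Nars2. In these 4 the cytosolic gene was lower on 6 of 6 arrays (exact two-sided sign-flip permutation test, p = 0.0312, the smallest possible). Over the 18 comparisons made, the adjusted p was 0.113 for these and for Farsb against Farsa (exact sign-flip test), and none passed. Since 0.0312 is the smallest p that 6 arrays allow, no comparison could pass this adjustment by itself. The adjusted test therefore cannot decide whether these pairs differ. The differences with opposite sign ran from 0.04 for Hars minus Hars2 to 0.10 for Vars minus Vars2 (adjusted p = 0.527 and 0.241, exact test).

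**Figure D5:**
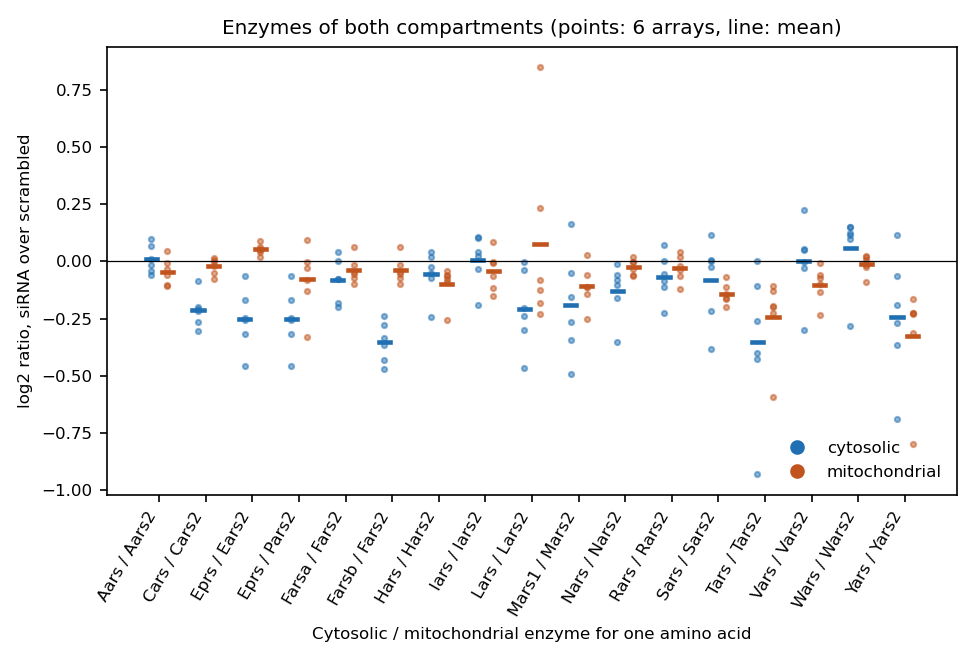
Log2 ratio (vertical axis) of the cytosolic gene (blue) and the mitochondrial gene (orange) for each amino acid, with a point for each of 6 arrays and the mean as a line. Cars, Eprs, Farsb and Nars are below their partners Cars2, Ears2, Fars2 and Nars2 on all 6 arrays, and the mean of Yars2 lies below that of Yars.

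Within the cytosolic set, genes that fell were found both inside and outside the multisynthetase complex. Of 7 measured complex enzymes (Eprs, Iars, Lars, Mars1, Qars, Rars and Kars), 1 fell, with a median of -0.12, and of the 12 others 3 fell, with a median of -0.09. The structural class of the catalytic domain was taken over both compartments, with Eprs counted in class I only. By class, 3 of 19 class I genes and 4 of 16 class II genes fell, with medians of -0.07 and -0.09. Of 12 cytosolic genes widely described as ATF4 targets, 3 fell (Tars, Eprs and Cars), and the median was -0.16. Of the 7 others 1 fell, Farsb, and the median was -0.08. Of all genes, 9.11% fell. The subgroups are small, and these differences between them were not tested.

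ATF4 binds together with C/EBP proteins at elements that hold TGATGNAA, and promoter sequence was therefore set beside the values. RefSeq promoters (GRCm38.p6, 250 bases before to 50 after the start) were matched by symbol for 28 of the 37 genes. TGATGNAA on either strand was found in the promoters of 5 of these, compared with 3.97% of all 32851 promoters. All 5 were among the 8 matched genes of the ATF4 list, but their ratios differed: Tars fell, while Yars was at -0.24, Gars at -0.09, Iars at 0.01 and Aars at 0.01, none of them past the threshold. For 4 of the 5 genes, the windows show the motif in capitals with 10 bases on each side, 5′ to 3′ in the direction of the motif, to let the matches be compared between a gene that fell and genes that did not pass. They lie at chr15:11399656-11399683 (plus strand) for Tars, chr4:129189896-129189923 (plus) for Yars, chr6:55037961-55037988 (minus) for Gars, and chr13:49682127-49682154 (minus) for Iars.
Tars: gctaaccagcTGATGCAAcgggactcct
Yars: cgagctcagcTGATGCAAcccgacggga
Gars: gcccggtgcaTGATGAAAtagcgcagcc
Iars: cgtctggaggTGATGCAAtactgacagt

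The same 8 letters, TGATGCAA, thus stood in the windows of Tars, Yars and Iars, whose mean log2 ratios were -0.35, -0.24 and 0.01. The E-box CACGTG was found for 5 of the 28 genes (Aars, Ears2, Farsb, Iars and Tars) and in 7.15% of all promoters. The GC box GGGCGG was found for 19, compared with 35.66% of all promoters. The left part of the REST binding element (TTCAGCACC), its right part and the palindromic NRF1 motif were found for none of the 28, and they occur in 0.37%, 0.14% and 0.97% of all promoters. TGATGNAA and CACGTG did not overlap in any of them. The promoters of the 2 genes with the lowest cytosolic means are given whole, 5′ to 3′ on the minus strand, with TGATGNAA (here as its reverse complement) and CACGTG in capitals. That of Tars is at chr15:11399609-11399908 and that of Farsb at chr1:78488848-78489147.
Tars: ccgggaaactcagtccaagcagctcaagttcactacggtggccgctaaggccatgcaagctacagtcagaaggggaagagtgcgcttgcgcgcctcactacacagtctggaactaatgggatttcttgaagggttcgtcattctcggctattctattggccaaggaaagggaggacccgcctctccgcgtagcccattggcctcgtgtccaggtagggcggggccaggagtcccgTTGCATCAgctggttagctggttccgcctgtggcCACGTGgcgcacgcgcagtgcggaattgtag
Farsb: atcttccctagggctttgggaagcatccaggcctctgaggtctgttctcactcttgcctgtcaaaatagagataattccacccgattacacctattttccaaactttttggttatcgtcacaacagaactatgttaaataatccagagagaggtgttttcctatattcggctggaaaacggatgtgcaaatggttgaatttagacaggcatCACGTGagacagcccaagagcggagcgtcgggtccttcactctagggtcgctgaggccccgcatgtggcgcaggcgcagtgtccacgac

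Other genes of the ATF4 amino acid response went both ways. Of 31 measured, 6 fell and 4 rose, with a median of -0.03, against 9.11% and 5.88% of all genes. Those that rose include Cebpb and Xpot, and Xpot is also counted among the genes of transfer RNA maturation and export. The 2 spots of Cebpb did not pass singly (adjusted p = 0.0614 and 0.0733 in limma). Atf5, a transcription factor of this response, fell by 0.59 ± 0.29 (log2), and Mthfd2, a mitochondrial folate enzyme gene, by 0.56 ± 0.19. Psph, for the last step of serine synthesis, fell by 0.44 ± 0.34. Gpt2, Slc38a2 and Ddit3 were also called lower, at -0.26 ± 0.16, -0.22 ± 0.12 and -0.20 ± 0.13. Slc7a5, a transporter of large neutral amino acids, rose by 0.38 ± 0.26, and Asns, the asparagine synthetase gene, by 0.23 ± 0.26, both named after their values were seen. The rise of Asns lay mostly in 1 dye orientation (adjusted p = 0.0198 in limma over all 6 arrays). It read 0.06, 0.15 and -0.13 on the Cy5 arrays and 0.59, 0.39 and 0.35 on the Cy3 arrays. Atf4 itself was at -0.07 ± 0.21 (adjusted p = 0.430 in limma). These counts moved with single arrays. Without array 1, 7 fell and 7 rose, while 12.2% of all genes fell and 13.7% rose. Without array 2, 7 fell and 2 rose (6.48% and 3.03% of all genes), and without array 3, 3 fell and 3 rose (7.42% and 3.14%). Without arrays 4, 5 and 6, 4, 2 and 1 fell (5.31%, 4.14% and 4.37% of all genes) and 1, 1 and 2 rose (2.91%, 1.73% and 2.01%). Of 8 genes for eIF2 kinases and their regulators, Impact, whose protein restrains GCN2, fell by 0.37 ± 0.16, and Eif2ak4, which encodes GCN2, was at -0.04 ± 0.06.

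Xpot, the export receptor of transfer RNAs, had the largest mean change of the genes listed around the synthetases, 0.81 ± 0.31 (SD, n = 6; adjusted p = 0.00376 in limma). That mean hides 2 spots for 1 transcript that moved apart, at 1.87 ± 0.47 (adjusted p = 0.000441) and -0.25 ± 0.23 (adjusted p = 0.131). Its direction therefore rests on a single spot.

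Of 27 genes of transfer RNA maturation and export, 8 fell and 2 rose (Xpot and Pop4), against 9.11% and 5.88% of all genes. The median of the 27 was -0.09. Trnt1, which adds the CCA end that synthetases require, fell by 0.43 ± 0.09 (SD, n = 6; adjusted p = 0.00112 in limma), with its 3 spots at -0.64, -0.49 and -0.15. Pop4 and Rpp30 are subunits of ribonuclease P, which trims the 5′ end. Pop4 rose by 0.35 ± 0.17, and Rpp30 fell by 0.27 ± 0.14. Leaving out array 1 gave 13 lower and 4 higher, and leaving out arrays 4, 5 and 6 gave 3, 2 and 4 lower, with 2, 1 and 1 higher. The shares of all genes moved with the same arrays, to 12.2% lower and 13.7% higher without array 1, and to 5.31%, 4.14% and 4.37% lower without arrays 4, 5 and 6.

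Of 7 elongation factor genes for the delivery of charged transfer RNA, 1 rose and 0 fell in limma, against 5.88% and 9.11% of all genes. An unadjusted p under 0.05 was seen for 3 of the 7, and for 4894 of all 19019 genes. Eef1a2 rose by 0.18 ± 0.05, on its single spot. The other two with a low unadjusted p were Tsfm, for the mitochondrial exchange factor, at -0.25 ± 0.33 (adjusted p = 0.0880), and Eef1a1 at 0.16 ± 0.15 (adjusted p = 0.120). Without array 1, 1 of the 7 was lower. Of 4 genes for mitochondrial glutaminyl-tRNA amidation and methionyl-tRNA formylation, Mtfmt, the formyltransferase gene, rose by 0.12 ± 0.14, a call lost without array 2, 3, 4, 5 or 6. None of 4 genes for editing and deacylation passed in limma, with 2 at an unadjusted p under 0.05 and 1 lower without array 1. Tarsl2, a further threonyl-tRNA synthetase gene that the name rule does not cover, was at -0.13 ± 0.13 (adjusted p = 0.137).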

How the data were processed

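The deposited table holds 1 value per spot and array for 44290 spots. Each was taken as a log2 ratio of the array's channels, already normalized and centred by the authors. Per the labels' protocols, RNA was extracted with Trizol and labelled with an Agilent linear amplification kit. No source used here gives the scanner, background correction or normalization. Ratios carry no signal level, so spots near background could not be recognised. Precision is also limited by the number of arrays. The log base is not stated: the largest absolute value of 3.75 would be a 5636-fold ratio on a log10 scale and 13.5-fold on a log2 scale, but natural logs are possible. Between dye orientations (arrays 2 to 6), correlations were 0.53 to 0.71 over named spots and -0.67 to -0.64 over unlisted spots, and the named spots were read as already turned to a common direction. The numerator is not stated, and siRNA over scrambled was taken. The series' design text speaks of overexpression and human genes, which the sample labels do not.

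The platform table named 1 gene for 32042 spots, and symbols were updated through gene identifiers. Spots with a value on all 6 arrays were averaged per gene (19019 genes) and tested with limma 3.58.1 in R 4.3.3 (statmod 1.5.0), with a mean and a dye term, 4 residual degrees of freedom, and Benjamini-Hochberg adjustment over all genes. The fit was tested on simulated data. Errors are standard deviations over the 6 arrays. Members and gene lists were chosen with earlier results of these data known. Every member is named, with array values for those past the threshold, and, for each gene list, the 4 called genes with the largest change. Other genes of the lists (Slc7a5, Asns, Cebpb, Gpt2, Slc38a2, Ddit3, Atf4, Eif2ak4, Tsfm, Eef1a1, Hand2, Dbh, Th, Nsun2, Elac2, Ssb) were added once their values were known. The comparisons between compartments were added after seeing the data. Alternatives changed the dye term, spot summary, moderation, array weights, scaling, missing values, dye orientation and single arrays.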

Additional observations from a re-analysis of the deposited data

Results flagged for a closer look

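The 6 array values were examined in 40 sets (the 37 genes, Rest and the medians of both compartments). Of these, 5 held an array whose gap to its neighbour was large against the whole range. Chance alone flags about 1 in 20 independent sets. These sets share their arrays, and the mitochondrial median draws on Yars2 and Tars2, so the count cannot be judged against that rate. In 4 of the 5 the array was array 1, at the low end. Wars read -0.281 there against 0.10 to 0.15 on the others, Yars2 read -0.798 against -0.31 to -0.16, and Tars2 read -0.591 against -0.22 to -0.11. The mitochondrial median was -0.103 on array 1 against -0.07 to -0.05. Hars2 read -0.256 on array 5 against -0.09 to -0.04 elsewhere.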

How the results depend on the processing

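Across the 17 alternatives, Farsb and Sars2 were past the threshold in 16 each, missing only the Cy5 arrays alone, Cars in 14, Eprs in 13, Tars2 and Yars2 in 11 and Tars in 9, and all 7 means stayed negative in each. Over all genes, 2852 were called, against 870 with the unmoderated test, 4728 with array weights, 9 on the Cy5 arrays alone, 4262 on the Cy3 arrays alone, and 1116 to 4921 when a single array was left out. Cytosolic genes called lower numbered 4, against 2 with the first spot per gene, 1 with the unmoderated test, 0 on the Cy5 arrays alone, 5 on the Cy3 arrays alone, and 2 to 7 when an array was left out. Wars made 1 cytosolic gene called higher with array weights and on the Cy3 arrays alone, and leaving out an array gave 0 to 1. Mitochondrial genes called lower numbered 3, against 1 with the unmoderated test, 5 with array weights, 0 on the Cy5 arrays alone, 3 on the Cy3 arrays alone, and 1 to 4 when an array was left out. Ears2 made 1 mitochondrial gene called higher with the unmoderated test. On the Cy5 arrays alone, limma gave 12 of the 37 genes an unadjusted p under 0.05. The cause of these shifts was not tested. An alternative chosen after seeing the data used only spots with a RefSeq mRNA accession. There 7 of the genes were lower and 0 higher in limma, against 10.4% and 6.26% of all genes. In that setting 15 had an unadjusted p under 0.05. Unadjusted p-values under 0.05 were counted over all genes only in the main fit. The analysis was paired throughout, since each array holds both samples of a pair and the test was made on their ratio.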

Other observations

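Spots of a gene disagreed beyond the synthetases as well. The RNA methyltransferase gene Nsun2 had spots for 1 transcript at -0.30 (adjusted p = 0.00508 in limma) and -0.002 (adjusted p = 0.991). Elac2, which trims the 3′ end of transfer RNA, had spots for different transcripts at -0.40 (adjusted p = 0.0112) and -0.02 (adjusted p = 0.809), and Ssb, the La protein gene, at -0.26 (adjusted p = 0.00263) and -0.0003 (adjusted p = 0.997). The spots of Pop4 were close, at 0.34 and 0.36, as were those of Psph, both at -0.44.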
